A study of Mus musculus with 6 samples.

Results

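The genes described here encode the parts of respiratory complex I, respiratory complex IV and ATP synthase that are made from nuclear DNA. They were taken by symbol, as Nduf followed by a, b, c, s or v and a number, as Cox4 to Cox8, and as Atp5. The rule found 72 of the 16383 genes listed, 37 for complex I, 18 for complex IV and 17 for ATP synthase, and used no measured value. It matched by name 3 genes whose products are not subunits, namely Atp5s, Atp5sl and Cox7a2l, and it counts Ndufa4 with complex I, although its product is known as a subunit of complex IV. Levels are FPKM, fragments scaled to the length of the transcript and to the size of the library. The RNA is that of mouse mature CD8 thymocytes, with 2 libraries for each of 3 genotypes: Tcf1-/-Lef1-/- (DKO), Tcf1-/- (Tcf1 KO) and wild type (WT). The cells had been sorted as TCRβ high and CD8+, without CD69 and CD24. Tcf1 and Lef1, a pair of kindred HMG-box factors, regulate genes in T cells, and the series asks what their loss does to these cells. The design text names CD4-Cre, a recombinase active from the double-positive thymocyte stage, as the means of deletion. The age of the mice, any Cre in the controls, and whether replicate libraries stem from different animals are not given in the sources used. P-values thus cover only the spread between these libraries, and part or all of it could be technical.

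Oxidative phosphorylation is the process by which the inner mitochondrial membrane turns the oxidation of nutrients into ATP. Complex I takes electrons from NADH, complex IV passes them to oxygen, both pump protons, and ATP synthase lets the protons flow back through its membrane part to drive the rotary making of ATP. Each is built from catalytic core subunits and many accessory ones, and each also contains subunits encoded in mitochondrial DNA. Resting T cells rely on this pathway, and T cells that are activated to divide enlarge it along with glycolysis. The genes of mitochondrial DNA, of complex II and of most of complex III are not analysed here.

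The spacing of low FPKM values gave about 51000000 to 66750000 fragments per library, an approximate depth. At it and by full transcript length, the tested member of lowest signal, Cox6b2, had about 69.8 fragments in its weakest library and Ndufa12 about 1110. The depth itself was read with lengths shortened by an assumed fragment of 200 bases, so both numbers are too high for such short transcripts. Libraries of a genotype correlated across genes at r = 0.9856 in DKO, 0.9892 in Tcf1 KO and 0.9916 in WT on the log2 scale. The targeted gene Lef1 had 130.92 and 130.23 FPKM in DKO, 308.74 and 311.52 FPKM in Tcf1 KO, and 316.1 and 281.86 FPKM in WT, so DKO was low and the other genotypes overlapped. Exons outside any deleted part add to these values, and Tcf7, which encodes Tcf1, is not analysed here. All 6 markers of CD8 thymocytes were present, with summed levels of 3990 to 4200 FPKM in DKO, 4000 to 4120 FPKM in Tcf1 KO and 3450 to 3680 FPKM in WT. The sums hide calls in both directions, by the test described below. In DKO against WT Cd3e and Cd3g rose, Cd3d fell and 3 did not pass, where 21.7% of all tested genes rose and 27.8% fell. In DKO against Tcf1 KO Cd3g rose and Cd8a and Cd3d fell, where 15.9% of all tested genes rose and 22.6% fell.

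Of the 72 genes 65 passed the filter on low values (1 FPKM or more in 2 or more libraries) and were tested: 36 of complex I, 12 of complex IV and all 17 of ATP synthase. The highest mean over the 6 libraries was that of Atp5b, the catalytic β subunit of ATP synthase, at 369 FPKM, followed by Atp5e, the ε subunit, at 322 FPKM. In complex IV the leading genes were Cox6a1 (292 FPKM), the form of subunit 6a used outside heart and muscle, and Cox4i1 (285 FPKM), the common form of subunit 4, and the ranges of this pair over the libraries overlapped. Complex I was led by Ndufa4 (213 FPKM) and by the accessory subunit Ndufa3 (188 FPKM), whose ranges also overlapped. At the low end stood Ndufa11 (12.4 FPKM), a membrane-arm accessory subunit of complex I, Cox6b2 (3.58 FPKM), the testis form of subunit 6b, and Atp5s (1.91 FPKM), whose product is called factor B.

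The 7 genes that did not pass the filter are forms of subunits known from other tissues or conditions. Cox4i2, known from lung, had 0.1 and 0.07 FPKM in DKO, 0.17 and 0.1 FPKM in Tcf1 KO, and 0.18 and 0.07 FPKM in WT. The heart and skeletal muscle form Cox7a1 had 0.44 and 0.37 FPKM in DKO, 0.79 and 0.61 FPKM in Tcf1 KO, and 0.65 and 0.67 FPKM in WT, and its counterpart Cox6a2 did not exceed 0.12 FPKM in any library. Cox8b, also a muscle form, was listed at 0.37 and 0.08 FPKM in DKO and at 0 in the other 4 libraries. Ndufa4l2, which hypoxia is known to induce, did not exceed 0.03 FPKM. Cox7b2 and Cox8c, known from testis, were listed at 0 in all 6 libraries. In each of these families the common form had the higher level in all 6 libraries.

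The first comparison set DKO against WT. Nearly the whole set was lower in DKO: 58 of the 65 tested members fell, 1 rose and 6 did not pass the test (limma on log2(FPKM + 1), Benjamini-Hochberg adjusted p under 0.05 over all 6761 tested genes). Over all tested genes 27.8% fell and 21.7% rose. By complex, 32 of 36 genes of complex I, 11 of 12 of complex IV and 15 of 17 of ATP synthase fell. The median log2 change of the 65 members was -0.40, against -0.03 over all tested genes, and changes ran from -0.89 in Ndufs5 to 0.54 in Cox6b2. In 60 of the 65 members both DKO libraries lay below both WT libraries, an order seen in 41.4% of all tested genes. The members together took 2.83% and 2.82% of the listed FPKM in the DKO libraries, 3.52% and 3.42% in the Tcf1 KO libraries, and 3.63% and 3.69% in the WT libraries. The changes were moderate in size, the lowest DKO mean of a tested member being 54.0% of its WT mean.

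**Figure D1:**
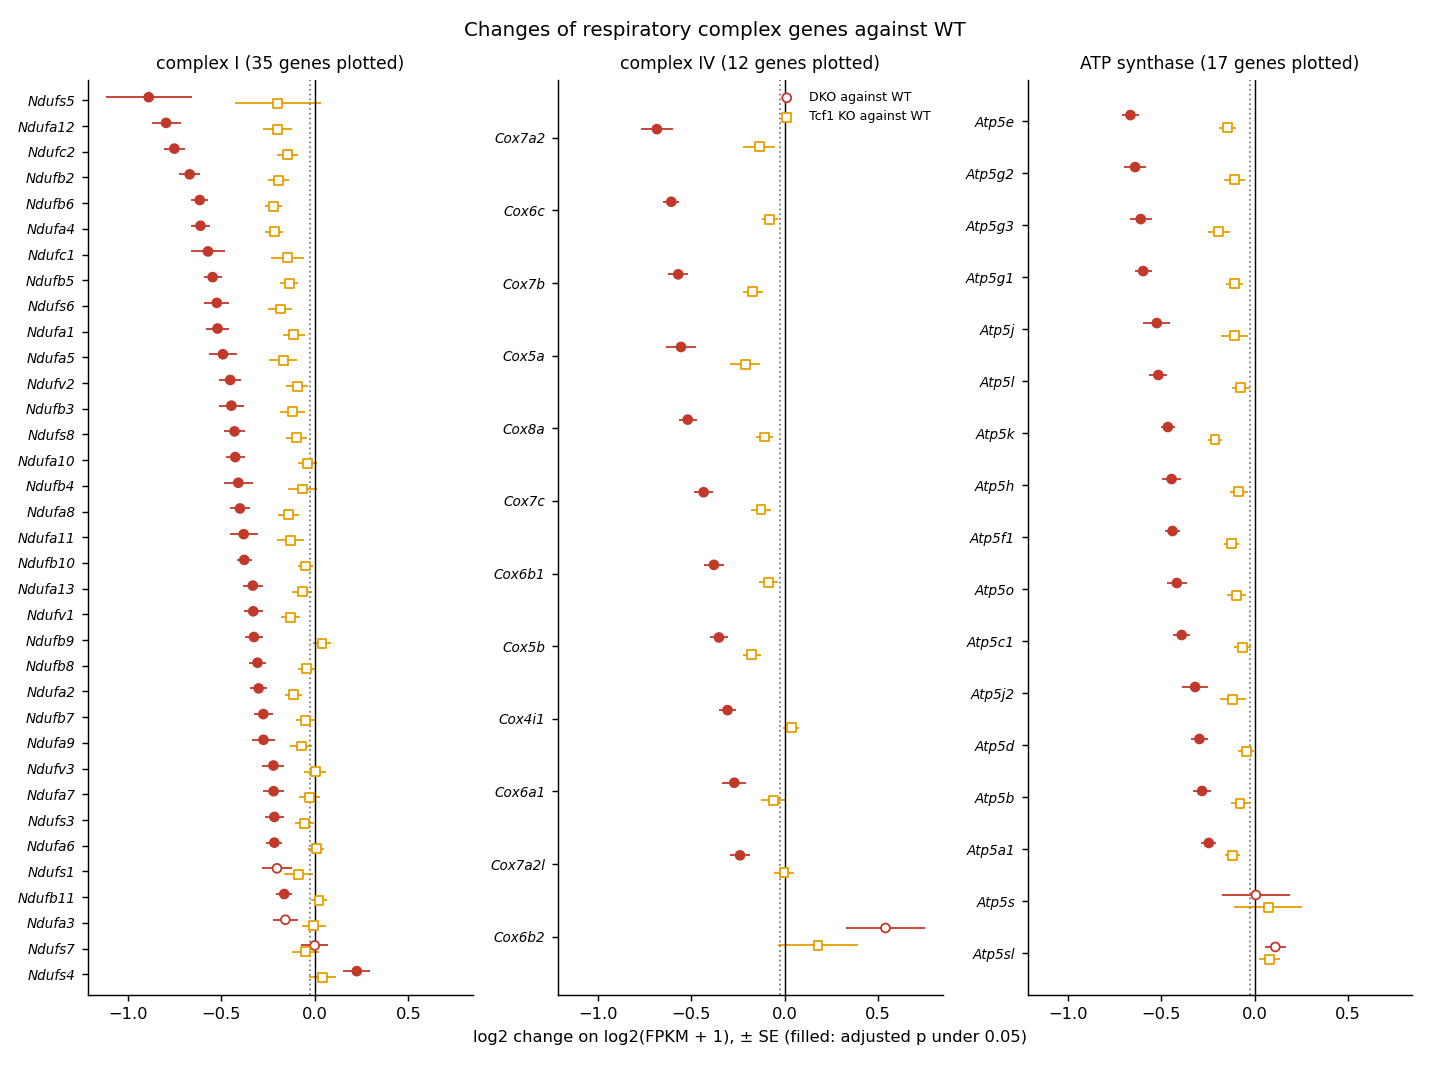
Log2 change of each tested gene against WT, on log2(FPKM + 1), in complex I (35 of the 36 genes), complex IV (12) and ATP synthase (17), with circles for DKO, squares for Tcf1 KO, bars for ± SE, filled symbols for adjusted p under 0.05, and a dotted line at the median of all tested genes in DKO. The circles lie left of the squares for most genes, and 57 filled circles lie below 0 while 1, that of Ndufs4, lies above.

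The promoters of 5 of these genes are shown as examples. Ndufa12, Cox6a1 and Atp5g2 are, in each complex, the called gene with the largest fall whose window holds a motif of NRF1, a factor known to bind promoters of respiratory genes (genes with a listed near-identical copy left out). Ndufs4 is the gene that rose, and Ndufs7 had the change nearest to 0, and neither was chosen by a motif. The NRF1 match was required of Ndufa12, Cox6a1 and Atp5g2, so its presence in their printed stretches follows from the choice. At -0.27 Cox6a1 was among the smaller falls of complex IV. Each line gives the 150 bases before the gene's start, 5′ to 3′ on the gene's strand, from RefSeq on GRCm38 at chr10:94198885-94199034 (plus strand) for Ndufa12, chr5:115348959-115349108 (minus) for Cox6a1, chr15:102671048-102671197 (minus) for Atp5g2, chr13:114388095-114388244 (minus) for Ndufs4 and chr10:80249299-80249448 (plus) for Ndufs7. Capitals mark matches to the motifs named after the sequences.
Ndufa12: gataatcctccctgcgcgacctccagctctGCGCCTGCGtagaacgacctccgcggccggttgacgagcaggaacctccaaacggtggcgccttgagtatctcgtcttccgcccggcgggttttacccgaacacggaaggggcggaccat
Cox6a1: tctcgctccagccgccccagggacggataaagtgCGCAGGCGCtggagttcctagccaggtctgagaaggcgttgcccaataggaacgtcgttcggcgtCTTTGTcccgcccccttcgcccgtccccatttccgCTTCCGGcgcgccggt
Atp5g2: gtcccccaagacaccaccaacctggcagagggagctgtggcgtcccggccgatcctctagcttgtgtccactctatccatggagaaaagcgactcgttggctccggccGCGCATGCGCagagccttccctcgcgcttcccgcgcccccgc
Ndufs4: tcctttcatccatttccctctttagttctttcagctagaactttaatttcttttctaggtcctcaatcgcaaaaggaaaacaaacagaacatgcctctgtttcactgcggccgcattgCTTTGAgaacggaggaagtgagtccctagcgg
Ndufs7: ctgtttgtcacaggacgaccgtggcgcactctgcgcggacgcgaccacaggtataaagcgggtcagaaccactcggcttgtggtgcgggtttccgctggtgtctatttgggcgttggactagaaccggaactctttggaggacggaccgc

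Matches were searched on both strands in windows from 250 bases before to 50 after the start. The letters were GCGCNTGCG for NRF1, CCGGAAG for ETS factors such as GABP, AAGATGG for YY1, CTTTGA and CTTTGT for Tcf1 and Lef1, and CCAAT. In the printed stretches, whose capitals leave CCAAT out, the NRF1 match begins 120 bases before the start of Ndufa12 and 116 before that of Cox6a1, which also holds an ETS match 16 bases before the start and CTTTGT 51 before it. Atp5g2 holds 2 overlapping NRF1 matches on opposite strands, 42 and 41 bases before its start. Ndufs4 holds CTTTGA 32 bases before the start, and the printed stretch of Ndufs7 holds none of the motifs, while an AAGATGG lies elsewhere in the wider windows of both. Of the 58 tested members with a window, 17 (29.3%) held the NRF1 motif, against 6.59% of all 27025 windows and 15.0% of the windows of tested genes. The YY1 motif stood in 11 (19.0%), against 6.48% and 7.64%, and the ETS motif also in 11 (19.0%), against 9.12% and 20.1%. CTTTGA was in 6 (10.3%), against 16.2% and 12.2%, CTTTGT in 12 (20.7%), against 18.7% and 13.5%, and CCAAT in 25 (43.1%), against 37.9% and 40.5%. NRF1 matches stood in 9 of 32 windows of complex I, 1 of 10 of complex IV and 7 of 16 of ATP synthase. The median log2 change in DKO against WT was -0.44 in members with the NRF1 motif and -0.39 in those without it, and likewise -0.44 and -0.41 for ETS and -0.31 and -0.43 for YY1. It was -0.25 with and -0.43 without CTTTGA, -0.41 and -0.42 for CTTTGT, and -0.41 and -0.43 for CCAAT, none of these differences being tested. A match is a run of letters and was not tested as a binding site.

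In complex I the largest falls were in accessory subunits. Ndufa12, of the matrix arm, had 38.6 and 38.75 FPKM in DKO, 58.79 and 59.18 FPKM in Tcf1 KO, and 62.76 and 73.46 FPKM in WT. It fell by 0.80 ± 0.08 on the log2 scale (SE, limma adjusted p = 0.000753), with both DKO libraries far below the other 4. Ndufc2, a membrane-arm subunit, had 39.95 and 42.9 FPKM in DKO, 62.64 and 64.28 FPKM in Tcf1 KO, and 68.86 and 71.98 FPKM in WT. This is a fall of 0.75 ± 0.06 (limma adjusted p = 0.000323), again with no overlap between the genotypes. Ndufb2 (-0.67), Ndufb6 (-0.62), Ndufa4 (-0.61) and Ndufc1 (-0.57) followed. Ndufa4, the leading gene by level, had 168.28 and 164.05 FPKM in DKO, 225.97 and 211.54 FPKM in Tcf1 KO, and 252.29 and 256.62 FPKM in WT, without overlap. Its difference between Tcf1 KO and WT did not pass (limma adjusted p = 0.0858).

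Ndufs5, a subunit of the intermembrane side, had the lowest change of all members, and it is an uncertain value. It had 27.19 and 17.95 FPKM in DKO, 43.48 and 30.3 FPKM in Tcf1 KO, and 41.84 and 41.79 FPKM in WT, a fall of 0.89 ± 0.23 (limma adjusted p = 0.0232). The call ended without DKO replicate 2 (adjusted p = 0.0627), without WT replicate 1 (0.0916), without WT replicate 2 (0.0967) and with no filter on low values (0.0616). The table also lists BC002163, whose transcript is nearly identical, at 28.37 and 28.91 FPKM in DKO, 24.72 and 32.42 FPKM in Tcf1 KO, and 28.76 and 27.26 FPKM in WT. Reads of this pair can be divided between them in more than 1 way. Their summed level was 55.56 and 46.86 FPKM in DKO, 68.2 and 62.72 FPKM in Tcf1 KO, and 70.6 and 69.05 FPKM in WT, and DKO was lowest by this sum as well.

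Of the 7 catalytic core subunits of complex I encoded in the nucleus 5 fell, and of the 29 accessory ones matched by the rule 27 fell and 1 rose, in a split made after the values were seen and not tested. Over all tested genes 27.8% fell and 21.7% rose. The 29 include Ndufa4, which fell and whose product is known as a subunit of complex IV. In the arm that oxidises NADH, Ndufv2 (-0.45) and Ndufv1 (-0.33), which carries the NADH site, fell, and in the arm that reduces ubiquinone Ndufs8 (-0.43) and Ndufs3 (-0.22) were among those that fell. A pair of core genes did not pass the test. Ndufs1, the largest iron-sulfur subunit, had 25.71 and 29.38 FPKM in DKO, 29.05 and 30.65 FPKM in Tcf1 KO, and 30.85 and 32.75 FPKM in WT (-0.20 ± 0.08, limma adjusted p = 0.0787). Its DKO libraries differed more from each other than those of the other genotypes, and without DKO replicate 2 it passed (-0.30, adjusted p = 0.0239). Ndufs7, which holds the iron-sulfur cluster next to ubiquinone, had 77.67 and 87.41 FPKM in DKO, 76.47 and 82.76 FPKM in Tcf1 KO, and 81.28 and 83.59 FPKM in WT. The 3 genotypes overlapped (-0.001 ± 0.073, limma adjusted p = 0.996).

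By symbol family, all 10 Ndufb genes and both Ndufc genes fell, and so did 12 of 13 tested Ndufa genes, beside 27.8% of all tested genes. The exception, Ndufa3, had 184.5 and 166.04 FPKM in DKO, 201.04 and 188.44 FPKM in Tcf1 KO, and 196.53 and 194.3 FPKM in WT (-0.16 ± 0.07, limma adjusted p = 0.0942). Both of its DKO libraries lay below the other 4, and it passed without DKO replicate 1 (-0.23, adjusted p = 0.0288). Ndufs4, a late-joining accessory subunit whose loss in mice models the mitochondrial disease Leigh syndrome, was the 1 member called higher in DKO. It had 32.52 and 30.38 FPKM in DKO, 28.35 and 26.73 FPKM in Tcf1 KO, and 25.42 and 28.19 FPKM in WT, with DKO above all other libraries. The rise of 0.22 ± 0.07 was at the edge of the test (limma adjusted p = 0.0471). It ended without any 1 of the 6 libraries (adjusted p from 0.0526 to 0.224), in the fit on DKO and WT alone (0.067) and with no filter (0.076).

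**Figure D2:**
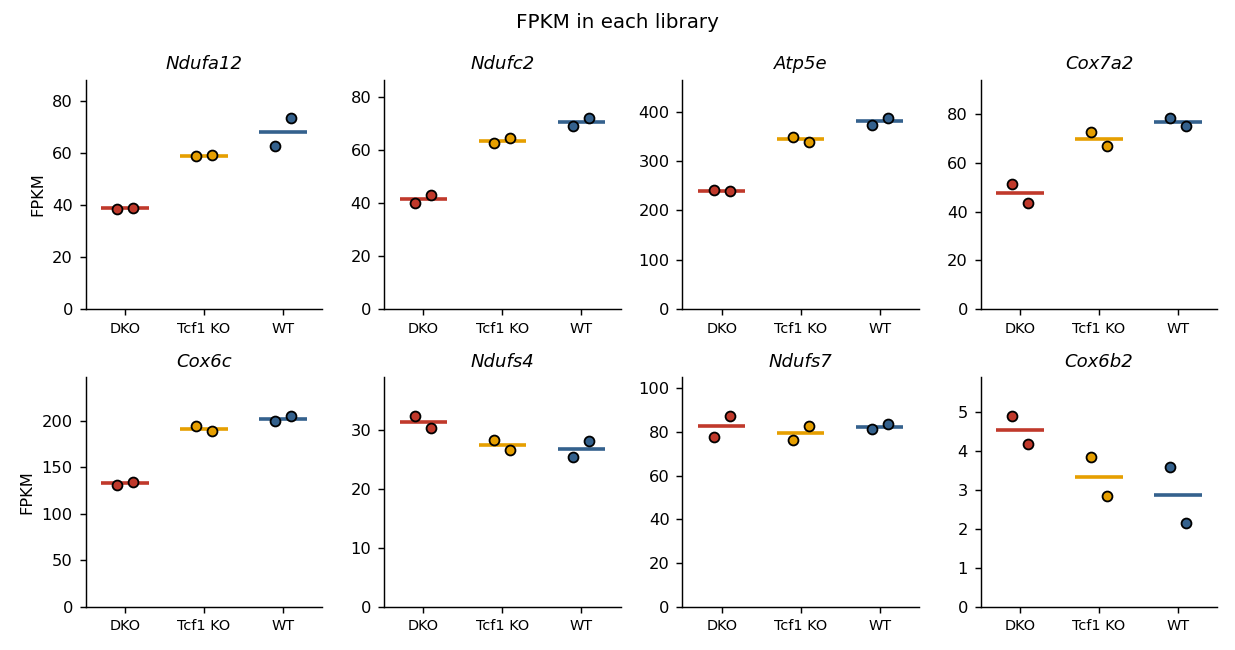
FPKM of 8 members in each library (points) with the mean of each genotype (line), DKO, Tcf1 KO and WT from left to right, each axis starting at 0. Ndufa12, Ndufc2, Atp5e, Cox7a2 and Cox6c are lowest in DKO without overlap, Ndufs4 and Cox6b2 are highest there, and Ndufs7 overlaps between all 3 genotypes.

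Among complex IV genes the falls were led by small membrane subunits. Cox7a2 had 51.34 and 43.75 FPKM in DKO, 72.54 and 66.99 FPKM in Tcf1 KO, and 78.48 and 75.04 FPKM in WT. It fell by 0.68 ± 0.09 (limma adjusted p = 0.00182), the genotypes not overlapping. Cox6c had 131.47 and 133.81 FPKM in DKO, 194.36 and 188.69 FPKM in Tcf1 KO, and 199.47 and 205.59 FPKM in WT, a fall of 0.61 ± 0.04 (limma adjusted p = 0.000305). Cox7b fell by 0.57 ± 0.05 to 63.73 and 60.66 FPKM in DKO, against 84.81 and 79.87 FPKM in Tcf1 KO and 94.03 and 91.53 FPKM in WT. Cox5a (-0.56), Cox8a (-0.52), the common form of subunit 8, and Cox7c (-0.43) followed, then Cox6b1 (-0.38), the common form of subunit 6b, and Cox5b (-0.35). The abundant Cox4i1 had 242.14 and 246.2 FPKM in DKO, 314.63 and 303.86 FPKM in Tcf1 KO, and 305.53 and 298.49 FPKM in WT. Its DKO libraries were low, while the Tcf1 KO and WT libraries overlapped (-0.31 ± 0.04 in DKO against WT, limma adjusted p = 0.00274).

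The smallest falls of complex IV were in abundant genes. Cox6a1 had 262.77 and 257.37 FPKM in DKO, 312.21 and 289.1 FPKM in Tcf1 KO, and 300.62 and 327.41 FPKM in WT (-0.27 ± 0.06, limma adjusted p = 0.0163), and this call ended without DKO replicate 2 (adjusted p = 0.0505) or WT replicate 2 (0.1). Cox7a2l, which helps to join complexes III and IV into supercomplexes, had 215.64 and 229.86 FPKM in DKO, 264.81 and 259.68 FPKM in Tcf1 KO, and 268.91 and 257.21 FPKM in WT (-0.24 ± 0.05, limma adjusted p = 0.0122, and 0.0823 without WT replicate 1). DKO was below all other libraries for both. Cox6b2 stood on the other side of WT: it had 4.9 and 4.17 FPKM in DKO, 3.83 and 2.83 FPKM in Tcf1 KO, and 3.59 and 2.15 FPKM in WT. The difference of 0.54 ± 0.21 did not pass (limma adjusted p = 0.0828), although DKO was above the other 4 libraries, and it passed without WT replicate 1 (0.81, adjusted p = 0.0352) and under quantile scaling (0.68, adjusted p = 0.0461). With Cox7a2l left out and Ndufa4 counted here, 11 of 12 tested subunits of complex IV fell, beside 27.8% of all tested genes, with a median of -0.48.

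All 15 subunits of ATP synthase fell, beside 27.8% of all tested genes, and the 2 members that did not pass were the 2 genes that encode no subunit. The part that makes ATP, F1, had a median of -0.30 over its 5 genes. The catalytic subunits had the smallest falls: Atp5a1 had 220.58 and 218.27 FPKM in DKO, 241.99 and 237.26 FPKM in Tcf1 KO, and 258.03 and 262.42 FPKM in WT, a change of -0.24 ± 0.04 (limma adjusted p = 0.00469). Atp5b had 337.33 and 319.45 FPKM in DKO, 381.46 and 374.61 FPKM in Tcf1 KO, and 395.12 and 403.16 FPKM in WT, a change of -0.28 ± 0.05 (limma adjusted p = 0.005). In both genes the libraries of the 3 genotypes did not overlap. The difference between Tcf1 KO and WT passed in neither (limma adjusted p = 0.176 for Atp5a1 and 0.425 for Atp5b). For Atp5a1 that between DKO and Tcf1 KO did not pass either (0.0563). The γ and δ subunits of the rotor, Atp5c1 and Atp5d, changed by -0.39 and -0.30. Atp5e, the small ε subunit of the same rotor, had the largest fall of this complex, with 241.18 and 238.58 FPKM in DKO, 349.53 and 339.17 FPKM in Tcf1 KO, and 373.57 and 387.64 FPKM in WT (-0.66 ± 0.05, limma adjusted p = 0.000254). Its DKO mean was 63.0% of the WT mean.

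The c subunit, which forms the proton-driven ring in the membrane, is encoded by 3 genes that differ in the presequence and give the same mature protein, and all 3 fell. Atp5g2 had 137.17 and 151.67 FPKM in DKO, 208.61 and 209.26 FPKM in Tcf1 KO, and 226.71 and 223.66 FPKM in WT, a change of -0.64 ± 0.06 (limma adjusted p = 0.000581). Atp5g3 had 209.5 and 194.69 FPKM in DKO, 276.67 and 263.6 FPKM in Tcf1 KO, and 301.39 and 315.71 FPKM in WT, a change of -0.61 ± 0.06 (limma adjusted p = 0.00066). Atp5g1 had 52.68 and 53.08 FPKM in DKO, 74.49 and 74.51 FPKM in Tcf1 KO, and 78.52 and 82.35 FPKM in WT, a change of -0.60 ± 0.05 (limma adjusted p = 0.000345). DKO was lowest in all 3 without overlap. The other 7 subunits, of the peripheral stalk (Atp5f1, Atp5h, Atp5j and Atp5o) and of the membrane part (Atp5j2, Atp5k and Atp5l), had changes between -0.52 and -0.32 with a median of -0.44.

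Neither of the 2 non-subunit genes passed the test. Atp5s had 1.47 and 2.29 FPKM in DKO, 1.94 and 2.03 FPKM in Tcf1 KO, and 1.53 and 2.18 FPKM in WT, and its genotypes overlapped (0.01 ± 0.18, limma adjusted p = 0.978). Atp5sl, whose product acts in the assembly of complex I, had 28.46 and 29.2 FPKM in DKO, 28.11 and 28.21 FPKM in Tcf1 KO, and 27.68 and 25.61 FPKM in WT (0.11 ± 0.06, limma adjusted p = 0.156). Among all members 13 have a near-identical annotated transcript of another gene (at least 95% identity over at least 50% of the transcript), among them Atp5g1, Atp5g2, Atp5l and Ndufa12, so their levels may include or lose reads of such copies. Besides BC002163, the 1 such copy listed in the table is Gm10012, a copy of Cox7c, at 1.48 FPKM or less.

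The complexes were then set beside each other. Summed over tested members, complex I stood at 2228 ± 33.2 FPKM in DKO, 2710 ± 10.6 FPKM in Tcf1 KO and 2884 ± 38.2 FPKM in WT (SD, n = 2 each). Complex IV stood at 1701 ± 1.41 FPKM in DKO, 2122 ± 78.5 FPKM in Tcf1 KO and 2245 ± 14.1 FPKM in WT. ATP synthase stood at 2414 ± 21.9 FPKM in DKO, 3040 ± 68.6 FPKM in Tcf1 KO and 3288 ± 55.2 FPKM in WT. DKO was thus the lowest genotype in each complex, with sums of 78.1% and 76.5% of the WT mean in complex I, 75.8% and 75.7% in complex IV, and 73.9% and 73.0% in ATP synthase. The median log2 changes in DKO against WT were -0.38 in complex I, -0.41 in complex IV and -0.44 in ATP synthase.

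**Figure D3:**
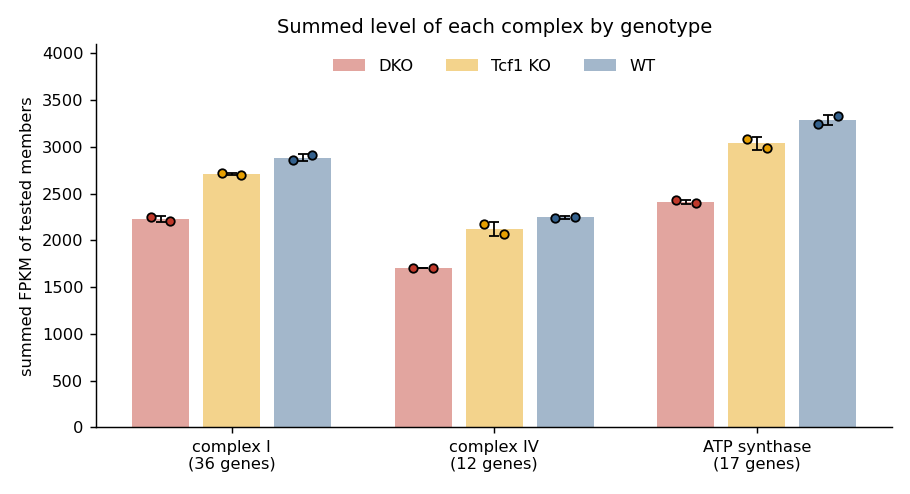
Summed FPKM of the tested members of each complex, with bars for the mean, points for the 2 libraries and error bars for the SD, in the order DKO, Tcf1 KO, WT. DKO is lowest in all 3 complexes, at 2228, 1701 and 2414 FPKM.

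The complexes were also compared within each library. The mean log2 level of complex IV exceeded that of complex I by 0.94 and 0.94 in the DKO libraries, by 0.98 and 0.88 in the Tcf1 KO libraries and by 0.95 and 0.88 in the WT libraries. For ATP synthase over complex I the differences were 0.92 and 0.97 in DKO, 0.97 and 0.94 in Tcf1 KO, and 0.95 and 0.96 in WT. With no filter on low values, which lets in the forms at or near 0 FPKM, complex IV minus complex I turned to a mean of -0.525 in DKO, -0.596 in Tcf1 KO and -0.625 in WT. ATP synthase minus complex IV gave -0.02 and 0.03 in DKO, -0.005 and 0.064 in Tcf1 KO, and 0.001 and 0.078 in WT, and with no filter it averaged 1.625 in DKO, 1.718 in Tcf1 KO and 1.746 in WT. With the filter of 1 FPKM, the DKO libraries overlapped the WT libraries in all 3 differences. Under it no shift of 1 complex relative to another was seen with 2 libraries a genotype. A filter of 5 FPKM also drops Cox6b2 and Atp5s, and its means by genotype are given with the processing settings. Whether the libraries overlap at that filter was not looked at, and no difference between complexes was tested.

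The second comparison set Tcf1 KO against WT. No member passed the test in either direction (limma), where 0.754% of all tested genes fell and 1.33% rose. At an unadjusted p under 0.05, 18 members were lower and 0 higher, against 11.8% and 9.35% of all tested genes. The log2 change was below 0 in 56 of 65 members, against 51.9% of all tested genes, with a median of -0.10 in the members and -0.01 over all genes. The medians of complex I, complex IV and ATP synthase were -0.10, -0.10 and -0.11. Summed levels were 91.0% to 97.0% of the WT mean over the 3 complexes and 2 libraries. The smallest adjusted p was that of Atp5k, subunit e of the membrane part, with 155.23 and 154.25 FPKM in DKO, 184.73 and 184.28 FPKM in Tcf1 KO, and 215.62 and 212.03 FPKM in WT. Its Tcf1 KO libraries lay between the other genotypes (-0.21 ± 0.04 against WT, limma adjusted p = 0.0653). Ndufb6 (-0.22 ± 0.05, limma adjusted p = 0.0711) and Ndufa4 (-0.22 ± 0.05, 0.0858) came next.

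**Figure D4:**
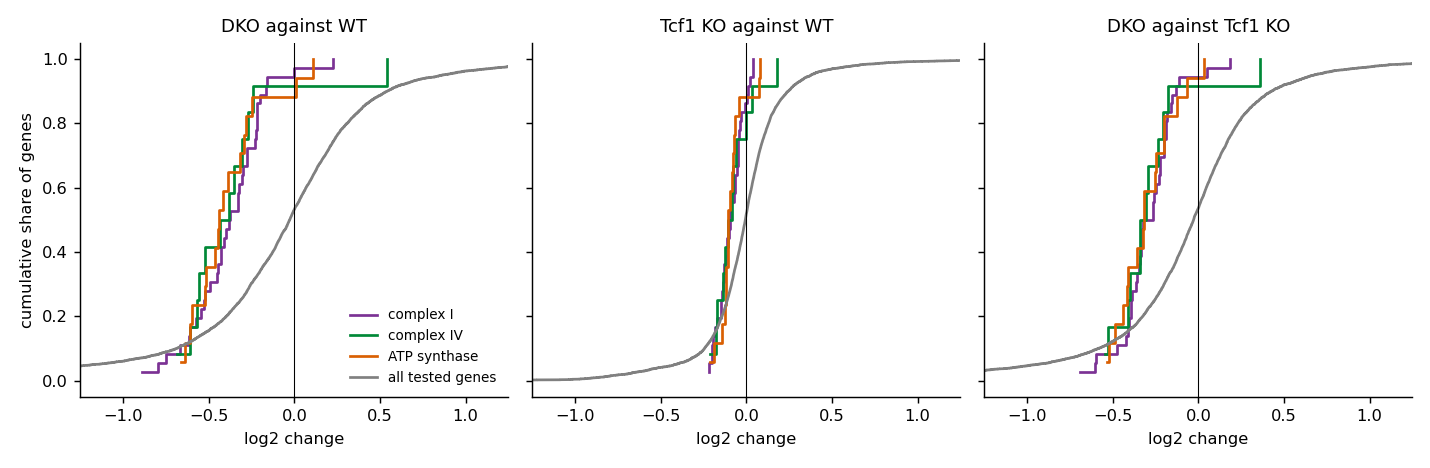
Cumulative share of genes (vertical, 0 to 1) by log2 change (horizontal, values beyond the axis not shown) in the 3 comparisons, for complex I, complex IV, ATP synthase and all 6761 tested genes. The curves of the complexes lie left of the grey curve over most of their length in DKO against WT (medians -0.38, -0.41 and -0.44, all genes -0.03) and in DKO against Tcf1 KO, and closer to it in Tcf1 KO against WT.

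DKO was also compared with Tcf1 KO, a pair of genotypes that differ in Lef1. Of the 65 tested members 53 fell in DKO, 0 rose (limma, 1 higher at unadjusted p under 0.05, where 20.7% of all tested genes were) and 12 did not pass, where 22.6% of all tested genes fell and 15.9% rose. The counts were 29 of 36 in complex I, 11 of 12 in complex IV and 13 of 17 in ATP synthase. The median change was -0.32 in the members and -0.03 over all tested genes. The largest falls past the test were in Ndufc2 (-0.60 ± 0.06, limma adjusted p = 0.0011), Ndufa12 (-0.60 ± 0.08, 0.00317), Cox7a2 (-0.55 ± 0.09, 0.00612), Atp5g2 (-0.53 ± 0.06, 0.00179), Cox6c (-0.53 ± 0.04, 0.000829) and Atp5e (-0.52 ± 0.05, 0.00095). Among the 12 that did not pass were Atp5a1, Atp5j2, Atp5s, Atp5sl, Cox6b2, Ndufa3, Ndufs1, Ndufs3, Ndufs4, Ndufs5 and Ndufs7. Of the named falls, that of Atp5b (-0.20, limma adjusted p = 0.0212) ended without DKO replicate 2 or any 1 library of Tcf1 KO or WT (0.0542 to 0.1), and that of Cox6a1 (-0.21, 0.048) without any 1 of the 6 libraries (0.0632 to 0.204). Under median scaling both ended as well (0.0827 and 0.133). The fall of Cox7a2l (-0.24, limma adjusted p = 0.0176) ended without DKO replicate 1 (0.0506), Tcf1 KO replicate 1 (0.0863) or Tcf1 KO replicate 2 (0.0661). This comparison shares the DKO libraries with the first one and the Tcf1 KO libraries with the second, so their counts are not independent.

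Other genes of the pathway were read from textbook lists, in DKO against WT, where 27.8% of all tested genes fell and 21.7% rose. Of 12 tested genes listed for the assembly of complex I, 5 fell and 0 rose (limma, 0 higher also at unadjusted p under 0.05). The list includes Ndufab1, whose product is an accessory subunit of complex I and whose symbol the rule for members does not match. It did not pass the test (-0.32 ± 0.11, limma adjusted p = 0.0523). Ndufaf4 had 4.73 and 4.01 FPKM in DKO, 7.39 and 7.3 FPKM in Tcf1 KO, and 7.44 and 8.31 FPKM in WT (-0.73 ± 0.10, limma adjusted p = 0.00222). Nubpl, which delivers iron-sulfur clusters (-0.62), and Ecsit (-0.39) followed. Of 15 assembly factors of complex IV, 10 fell, led by Cox10 and Cox15, of heme A synthesis (-0.45 and -0.43), and the insertase gene Cox18 (-0.43), and Cox20, which escorts a mitochondrially encoded subunit, rose (0.16 ± 0.04, limma adjusted p = 0.0331). Of 3 ATP synthase factors 1 fell, a share near that of all tested genes, namely Atpif1, whose product inhibits the reverse, ATP-splitting run of the enzyme. Atpif1 had 24.93 and 27.04 FPKM in DKO, 46.36 and 41.96 FPKM in Tcf1 KO, and 45.53 and 49.09 FPKM in WT, with DKO far below (-0.84 ± 0.08, limma adjusted p = 0.000571).

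Electron carriers and other entry points to the chain had 7 falls and 1 rise among 17 tested genes, beside the 27.8% and 21.7% of all tested genes, which also stand beside the 2 lists that follow. Coq7, an enzyme of ubiquinone synthesis, had 3.37 and 3.36 FPKM in DKO, 5.98 and 6.27 FPKM in Tcf1 KO, and 7.68 and 8.64 FPKM in WT (-1.07 ± 0.08, limma adjusted p = 0.000383). Etfb, of the electron transfer flavoprotein (-0.75), and Cycs, which encodes cytochrome c (-0.70), fell as well. Gpd2, the mitochondrial glycerol phosphate dehydrogenase, which passes electrons to ubiquinone without complex I, rose to 12.7 and 16.25 FPKM in DKO, against 9.06 and 8.81 FPKM in Tcf1 KO and 8.03 and 8.99 FPKM in WT (0.70 ± 0.12, limma adjusted p = 0.00593). In the TCA cycle, which supplies the NADH, 6 of 10 genes fell and 0 rose (limma, 0 higher also at unadjusted p under 0.05), led by the fumarase gene Fh1 (-0.58), Mdh2 (-0.37) and Dld (-0.35). Of 10 genes for the mitochondrial network and cristae 7 fell and 0 rose (limma, 0 higher also at unadjusted p under 0.05), among them the cristae-junction genes Apoo (-0.78), Apool (-0.58) and Chchd6 (-0.57).

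**Figure D5:**
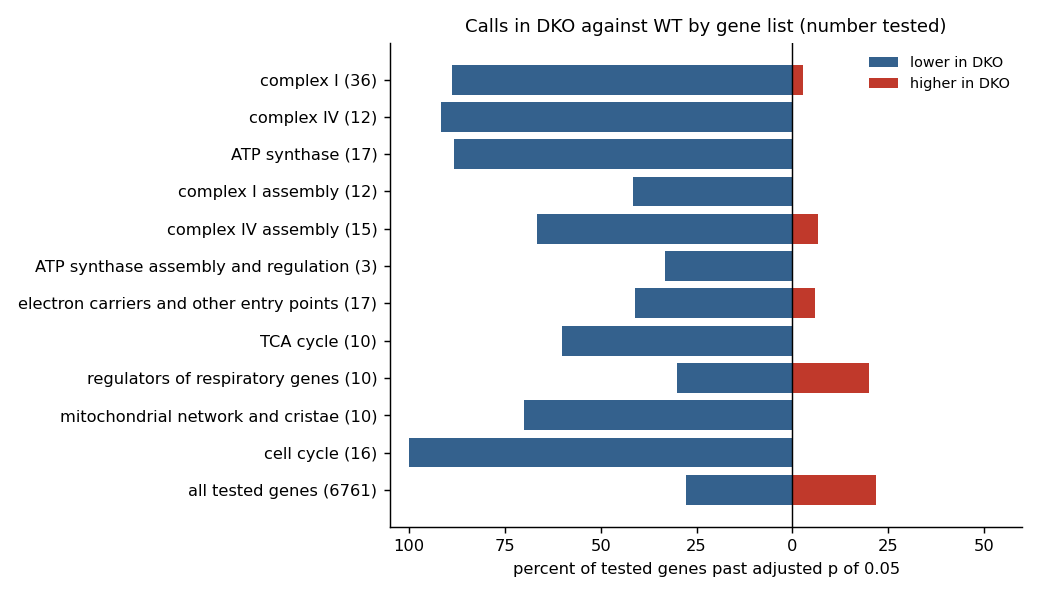
Percent of the tested genes of each list that passed adjusted p of 0.05 in DKO against WT, lower to the left and higher to the right of 0, with the number tested in brackets. The 3 complexes stand at 88.9%, 91.7% and 88.2% lower, beside 27.8% for all tested genes.

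Of 10 regulators of respiratory genes 3 fell and 2 rose, near the 27.8% and 21.7% of all tested genes. Myc, which drives growth and mitochondrial genes, had 21.02 and 25.42 FPKM in DKO, 43.59 and 44.77 FPKM in Tcf1 KO, and 52.75 and 64.16 FPKM in WT (-1.30 ± 0.12, limma adjusted p = 0.000653). Hif1a (-0.32), of the hypoxia response, and Hcfc1 (-0.21) fell, whereas Gabpb2 (0.49), a partner of the ETS factor Gabpa, and Nfe2l2 (0.38), of the oxidative stress response, rose. Nrf1, which encodes the factor of the GCGCNTGCG motif, had 29.73 and 25.28 FPKM in DKO, 22.51 and 20.67 FPKM in Tcf1 KO, and 23.54 and 22.09 FPKM in WT. DKO was highest, and the difference from WT did not pass (0.26 ± 0.09, limma adjusted p = 0.0652), while that from Tcf1 KO did (0.33 ± 0.09, 0.0367). With Tcf1 alone lost, 0 genes of these mitochondrial and regulator lists were called against WT (limma), and at unadjusted p under 0.05 there were 3, all lower, in each of the complex IV assembly (of 15), electron carrier (of 17) and regulator (of 10) lists, 1 lower in the TCA cycle list (of 10) and 0 in the other 3, where 11.8% of all tested genes were lower and 9.35% higher.

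Some other properties moved with the same genotypes. The cell cycle list fell in all 16 of its genes in DKO, with a median of -2.87, where 27.8% of all tested genes fell. Mki67, a marker of dividing cells, had 0.93 and 0.68 FPKM in DKO, 28.27 and 16.71 FPKM in Tcf1 KO, and 46.89 and 42.5 FPKM in WT, with the genotypes in the same order as the summed levels of the complexes. In Tcf1 KO 5 of the 16 fell (limma, median -0.82), and all 16 were lower at unadjusted p under 0.05. Of the 65 respiratory members 0 fell, and 18 were lower at unadjusted p under 0.05. Over all tested genes 0.754% fell, and 11.8% were lower at unadjusted p under 0.05. The part of dividing cells in the members' lower levels was not tested, and in bulk RNA fewer cells of a type cannot be told apart from less RNA per cell. The products of Cd69 and Cd24a were selected against in the sort, and for CD4 no gate is stated. Of these 3 genes Cd4 rose, Cd69 fell and Cd24a did not pass the test in DKO against WT. Cd4 had 128.95 and 63.72 FPKM in DKO, 15.06 and 6.27 FPKM in Tcf1 KO, and 1.41 and 0.65 FPKM in WT (5.52 ± 0.48, limma adjusted p = 0.000516). Cd69, an early activation marker, had 27.22 and 27.11 FPKM in DKO, 33.22 and 31.63 FPKM in Tcf1 KO, and 39.41 and 35.96 FPKM in WT (-0.46 ± 0.06, limma adjusted p = 0.0023). Cd24a had 5.76 and 2.79 FPKM in DKO, 4.32 and 2.74 FPKM in Tcf1 KO, and 3.23 and 2.61 FPKM in WT (0.37 ± 0.31, limma adjusted p = 0.352). The part of cells with these RNAs in the members' levels was not tested.

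Several markers of other cells were called in DKO against WT, where 27.8% of all tested genes fell and 21.7% rose. In Tcf1 KO against WT these shares were 0.754% and 1.33%. The 3 genes of immature double-positive thymocytes summed to 20.3 to 22.9 FPKM in DKO, 30.9 to 35.6 FPKM in Tcf1 KO and 9.84 to 11.4 FPKM in WT. Of these Arpp21 rose, with 5.85 and 4.43 FPKM in DKO, 4.49 and 3.49 FPKM in Tcf1 KO, and 0.97 and 0.63 FPKM in WT (1.77 ± 0.17, limma adjusted p = 0.000779). Aqp11 rose as well, with 6.92 and 6.51 FPKM in DKO, 2.81 and 2.96 FPKM in Tcf1 KO, and 1.34 and 1.18 FPKM in WT (1.77 ± 0.09, limma adjusted p = 0.000145). Dntt, which makes up most of the sum in Tcf1 KO and WT, did not pass in DKO against WT (limma adjusted p = 0.201), and all 3 rose in Tcf1 KO against WT. Myeloid markers summed to at most 2.05 FPKM in DKO, 1.73 FPKM in Tcf1 KO and 1.33 FPKM in WT, 4 of 5 staying at or below 1 FPKM in every library, with Cd14 listed at 0 throughout. B cell markers summed to 22.7 to 25.9 FPKM in DKO, 14.9 to 16.9 FPKM in Tcf1 KO and 19.8 to 20.5 FPKM in WT, most of it Cd79b, which rose in DKO (0.29 ± 0.09, limma adjusted p = 0.0396), while Ms4a1 did not exceed 0.01 FPKM. Erythroid markers summed to 16.6 to 18.1 FPKM in DKO, 5.75 to 5.93 FPKM in Tcf1 KO and 10.4 to 10.5 FPKM in WT, most of it Car2, which rose in DKO (0.64 ± 0.06, limma adjusted p = 0.000629) and fell in Tcf1 KO. Markers of thymic stroma summed to 3.75 to 4.39 FPKM in DKO, 2.1 to 2.66 FPKM in Tcf1 KO and 2.04 to 2.25 FPKM in WT. In DKO Cdh5 (0.74 ± 0.13, limma adjusted p = 0.00556) and Epcam (0.54 ± 0.14, 0.0221) rose. The other 3 of 5 stayed at or below 1 FPKM in every library and were not tested. Among them Col1a1 was lower in DKO, with 0.2 and 0.19 FPKM, against 0.32 and 0.24 FPKM in Tcf1 KO and 0.45 and 0.28 FPKM in WT. Krt5 and Krt8 did not exceed 0.04 FPKM. The part of such cells in the members' levels was not tested.

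The members are also short and abundant, and genes like them in this respect were looked at. Transcripts of the 65 members had a median length of 745 bases, 45 of them under 1000 bases. Of other tested genes with a mean of at least 50 FPKM and a transcript under 1000 bases, 48.5% fell in DKO and 8.74% rose, with a median log2 change of -0.17 (103 genes). All other abundant genes (899 genes, 32.0% lower, 28.4% higher, median -0.03) and all other short ones (664 genes, 27.6% lower, 13.6% higher, median -0.07) gave values nearer to all genes. Over all tested genes 27.8% fell and 21.7% rose. Both of these sets contain the 103 genes, so neither shows abundance or shortness alone. Over the members the change and the transcript length had a Spearman rho of 0.4, shorter transcripts having the lower changes, a description over genes that share the same libraries. The part of length and level in the 89.2% of members that fell was not tested.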

How the data were processed

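The aligner, annotation release and read filters are not given in the sources used. Per the submitters' processing notes, the authors used FastQC and RSEM 1.2.21 with mm9, and RSEM shares reads that fit several genes among them. The authors deposited FPKM per gene with 2 decimals, in 1 column per library, and no read counts. The listing is alphabetical and ends at Pcsk5, so later genes are not analysed here. Of 16383 listed genes 6761 had 1 FPKM or more in 2 or more libraries and were tested, and 9622 were set aside. Genotypes were compared on log2(FPKM + 1) with limma 3.58.1 (trend, R 4.3.3) in 1 fit of all 6 libraries on genotype with 3 residual degrees of freedom. P-values were adjusted by Benjamini-Hochberg over all tested genes, with a threshold of 0.05. The fit was also run on simulated data with independent noise and few changed genes. That setting is unlike these data, so it does not give the error rate here. Changes are on the log2(FPKM + 1) scale, which understates those of low genes.

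Depth was read from the spacing of low values of transcripts of 400 to 1000 bases, assuming fragments of 200 bases, and 68.4% to 76.2% of the values came out whole within 0.25 fragments. Evenly spread values would fall within this tolerance as often as outside it, and the depth with the largest share was kept. The depth is thus approximate, and no count test, interval or floor was made. Members and gene lists were chosen with earlier results of these data known. Genes named in full are the largest changes in each complex, those of highest level, genes that did not pass the filter, the isoform families and the non-subunit genes. Core subunits of complex I, the parts of ATP synthase, members that did not pass or were named in Tcf1 KO, and the subunits-only setting were chosen after their values were seen. Promoter windows came from RefSeq on GRCm38, matched through the RefSeq transcripts listed for each gene, for 61 of 72 members and 58 of 65 tested ones, and no other coordinates were used. Alternatives were a pseudocount of 0.1, no filter or a filter of 5 FPKM, median and quantile scaling, the replicate block, a fit on the compared genotypes alone, and leaving out each library. Values of some single genes are not reported here.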

Additional observations from a re-analysis of the deposited data

How the results depend on the processing

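No called result changed direction under the settings run. Lower members in DKO against WT (58) numbered 46 to 58 without 1 library, 56 under median scaling, which removed a shift of -0.056 in the median of all genes, and 57 with no filter. In DKO against Tcf1 KO (53) there were 36 to 46, 43 and 45, and 43 in the fit on those genotypes alone. Tcf1 KO against WT gave 0 under every setting run. The 1 higher member in DKO against WT became 0 with no filter and in the fit on those genotypes alone, 2 under quantile scaling, and 0 to 1 without 1 library, being Cox6b2 and not Ndufs4 without WT replicate 1.

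Median changes in DKO against WT moved under median scaling to -0.323 in complex I, -0.35 in complex IV and -0.383 in ATP synthase. Without 1 library they ran from -0.39 to -0.351, from -0.427 to -0.386 and from -0.455 to -0.413. Complex IV gave -0.329 with no filter, -0.434 at 5 FPKM, -0.365 under quantile scaling and -0.476 with subunits only, a setting chosen after seeing the data, and ATP synthase -0.406 under quantile scaling. In Tcf1 KO against WT, ATP synthase gave -0.071 and complex IV -0.065 under quantile scaling, and without 1 library complex I ran from -0.107 to -0.071, complex IV from -0.126 to -0.065 and ATP synthase from -0.124 to -0.069. In DKO against Tcf1 KO, median scaling gave -0.243, -0.273 and -0.269 for the 3 complexes. Complex I was at -0.264 both with no filter and with subunits only, and without 1 library it ran from -0.316 to -0.253 and complex IV from -0.364 to -0.248.

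Differences between complexes in mean log2 level depended on the filter, since forms at or near 0 FPKM enter without it and Cox6b2 and Atp5s leave at 5 FPKM. Complex IV minus complex I became -0.525 in DKO, -0.596 in Tcf1 KO and -0.625 in WT with no filter, and 1.322, 1.374 and 1.383 at 5 FPKM. In DKO it was 0.932 with a pseudocount of 0.1 and 0.943 under quantile scaling. ATP synthase minus complex I became 1.1 in DKO, 1.122 in Tcf1 KO and 1.12 in WT with no filter, and 1.27, 1.299 and 1.305 at 5 FPKM, and 0.933 in WT with a pseudocount of 0.1. ATP synthase minus complex IV became 1.625 in DKO, 1.718 in Tcf1 KO and 1.746 in WT with no filter, and -0.052, -0.075 and -0.078 at 5 FPKM.

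Counts over all tested genes moved by over 1.5 times. In DKO against WT 1465 were higher, and 956 without WT replicate 1 and 877 without WT replicate 2, while 1880 were lower, and 1176 without WT replicate 2. In Tcf1 KO against WT 90 were higher, and 8 to 145 without 1 library, 27 with no filter and 141 in the fit on those genotypes alone, while 51 were lower, and 3 to 95, 12 and 112. In DKO against Tcf1 KO 1072 were higher, and 602 and 673 without a Tcf1 KO library, while 1527 were lower, and 983 and 944.

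With the replicate block 60 members were lower and 1 higher in DKO against WT, 0 were called in Tcf1 KO against WT, and 52 were lower in DKO against Tcf1 KO. The numbers are not known to pair the libraries: deviations of same-numbered libraries correlated at 0.154, 0.0454 and 0.147 in the 3 comparisons. In DKO against WT, Cox6b2 (limma adjusted p = 0.0145), Ndufa3 (0.0476) and Ndufs1 (0.0279) passed with the block and Ndufs4 (0.0588) did not. In DKO against Tcf1 KO, Ndufs5 passed (0.0198) and Cox6a1 did not (0.0612). The block changed no other call of a named gene. With 2 libraries a genotype and no read counts, small differences between members or complexes may have gone undetected.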
